A study of Mus musculus with 59 samples.

Results

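The small leucine-rich proteoglycans are 10 genes of the 18193 that the arrays name, and 21 of 34945 probe sets that name 1 gene belong to them. The members were taken by symbol: Ogn, Lum, Dcn, Bgn, Fmod, Aspn, Prelp, Omd, Podn and Chad, and all 10 had at least 1 probe set. The proteins share a core of leucine-rich repeats, most of them carry chondroitin, dermatan or keratan sulfate chains, and they are secreted into the extracellular matrix. They bind fibrillar collagens and set the width and spacing of collagen fibrils, and several of them also bind TGF-beta family ligands or cell surface receptors. By sequence, Dcn, Bgn and Aspn form class I, Lum, Fmod, Prelp and Omd class II and Ogn class III, while Chad and Podn stand outside these classes.

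The series profiled mouse serous epithelial ovarian cancer (SEOC) tumors and normal ovarian epithelium on Affymetrix expression arrays, and asked how tumors that arose in engineered mice and tumors passaged by orthotopic transplantation relate to each other and to normal tissue. The labels give FVB/NJ as the strain of every sample. Normal epithelium came from wild type mice and was sampled 3 times. Every tumor carried a transgene in which the cytokeratin 18 promoter drives T121, a viral fragment that inactivates the RB family, once Cre recombinase has acted. Cre was delivered as an adenovirus injected into the ovarian bursa, so that the alleles recombined only in the cells the virus had reached. The 26 published primary tumors comprised 14 that were Brca1-deficient with p53 deleted, 3 that were Brca1-deficient with missense p53, 5 that were Brca2-deficient with missense p53 and 4 that were wild type for Brca1 and Brca2 with p53 deleted. A new set held 5 primary and 23 passaged tumors, all with p53 deleted, in which tumor fragments had been transplanted under the ovarian bursa of FVB females. Passages 1 and 2 gave 8 tumors each, passage 3 gave 3, and passages 4 and 5 gave 2 each. The line of origin of most passages is not in the labels, and tumors of 1 line entered as separate samples, so that p-values within the new set can be too small.

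The 59 arrays gave 57 samples, because 2 pairs of arrays were nearly identical. The probe sets of each such pair differed with an SD of 0.0722 and 0.0803 (log2), and each such pair was counted as 1 sample. The next closest arrays were the 2 of passage 5, with an SD of 0.209, and they stayed 2 samples. The second of the nearly identical pairs carried labels of both Brca1 genotypes and was left out wherever genotype entered a test. This left 16 Brca1-deficient and 11 wild type samples in the new set. Array medians lay between 7.2 and 7.51. Normal samples held signal of other ovarian cells: the mean log2 level of the 14 measured oocyte markers was 8.72 to 9.72 there and 5.37 to 6.28 in published tumors, and that of granulosa, theca and luteal markers 9.73 to 10.56 against 6.85 to 8.67. Mesothelial and surface epithelial markers were at 10.99 to 11.62 in normal samples and 10.97 to 12.27 in published tumors. The Brca1 probe set ranged from 9.33 to 11.18 in published Brca1-deficient tumors and from 9.77 to 10.74 in wild type ones, and since its place relative to the deleted part is not known it checks no label.

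In the RefSeq gene order, several members are neighbours. Aspn, Omd and Ogn follow each other on chromosome 13 between Ecm2, another leucine-rich matrix gene, and Nol8. Dcn and Lum stand side by side on chromosome 10, and Prelp and Fmod on chromosome 1. The starts of the 3 chromosome 13 genes are shown because these adjacent genes were all lower in tumors than in normal epithelium. Each sequence runs from 250 bases before to 50 bases after the gene start (RefSeq, GRCm38.p6, plus strand), in the order Aspn at chr13:49544193-49544492, Omd at chr13:49582212-49582511 and Ogn at chr13:49607765-49608064, and capitals mark matches to the TATA box motif TATAAA on either strand.
Aspn: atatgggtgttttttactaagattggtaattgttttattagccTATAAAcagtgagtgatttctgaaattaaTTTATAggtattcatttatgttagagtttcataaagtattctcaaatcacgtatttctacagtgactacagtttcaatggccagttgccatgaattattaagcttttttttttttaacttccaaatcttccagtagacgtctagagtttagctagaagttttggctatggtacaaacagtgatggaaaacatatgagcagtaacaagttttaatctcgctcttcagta
Omd: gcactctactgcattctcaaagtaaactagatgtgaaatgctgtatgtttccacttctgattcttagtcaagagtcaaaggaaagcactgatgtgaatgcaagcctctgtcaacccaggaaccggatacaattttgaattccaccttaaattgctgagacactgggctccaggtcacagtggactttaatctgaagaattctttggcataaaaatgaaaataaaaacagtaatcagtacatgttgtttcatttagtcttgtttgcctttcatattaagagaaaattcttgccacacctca
Ogn: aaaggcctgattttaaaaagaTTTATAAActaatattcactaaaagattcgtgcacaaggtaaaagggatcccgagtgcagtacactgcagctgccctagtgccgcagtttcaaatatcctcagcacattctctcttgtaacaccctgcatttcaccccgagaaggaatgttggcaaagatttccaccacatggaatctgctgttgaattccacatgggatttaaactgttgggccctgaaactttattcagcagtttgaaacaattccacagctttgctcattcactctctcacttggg
The Aspn window held 2 matches, whose first bases lie 207 and 178 bases before the start. The Ogn window held 2 that overlap each other, at 229 and 227 bases before the start, and the Omd window held none. Of the 9 promoters found for 8 members, 3 had a TATAAA match (Aspn, Ogn and Chad), against 13.6% of all 32851 mouse promoters of this length. The SMAD motif CAGACA was matched in 2 member promoters, that of Prelp and 1 of the 2 of Podn, against 21.0% of all promoters. The AP-1 motif TGANTCA had no match in the 9 windows, against 7.81% of all. Both strands were searched, and a match is a run of letters and not a measured binding site.

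The first question was how the members stand in primary tumors relative to normal epithelium. Ogn, Lum, Aspn, Omd, Fmod and Bgn were lower in the published primary tumors than in normal epithelium, and Dcn, Prelp, Podn and Chad did not pass the test. Thus 6 of 10 members were lower and 0 higher, against 24.5% of all probe sets called lower in this comparison, and 13 of the 21 member probe sets were lower. The median log2 difference was −1.19 over the members and −0.11 over all genes tested. A call here is an adjusted p under 0.05 in limma over all 34945 probe sets, each gene is given by its brightest probe set, and differences are log2. Whether separate mice gave the 3 normal samples is not stated, and the fit takes them as separate. The p-values rest on a spread pooled over tumor and normal samples, most of which are tumors. In bulk tissue, fewer cells of a type and less RNA per cell cannot be told apart. The part of the oocyte, granulosa and stromal cells of the normal samples in these differences was not tested.

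**Figure D1:**
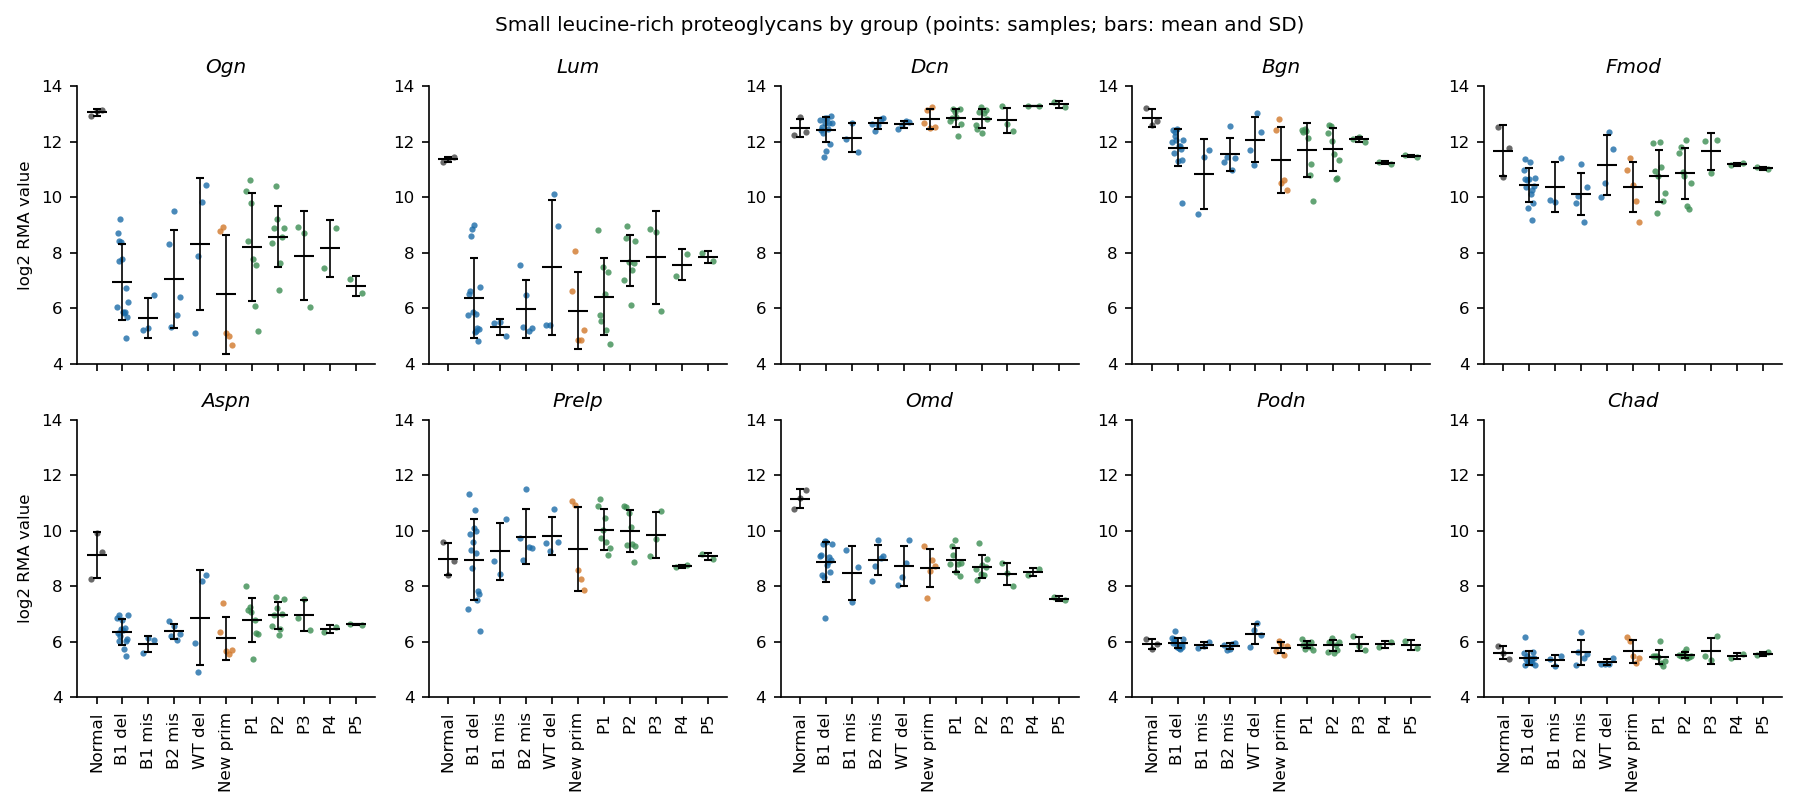
Log2 level of each member (y axis, brightest probe set) in every sample by group: normal epithelium, the 4 published genotypes (B1 and B2, Brca1- and Brca2-deficient; WT, Brca wild type; del and mis, p53 deleted and missense), new primary tumors and passages 1 to 5; points are samples and bars the mean and SD. Ogn, Lum and Omd of all 54 tumor samples (tumor 30200 stands once in each set) lie below the 3 normal samples, while Dcn of 32 lies within the normal range. The share of all probe sets that separate like this was not counted.

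Ogn (osteoglycin or mimecan), a class III member of bone and vessel matrix, had the largest difference of the family. Its log2 level was 12.92, 13.09 and 13.14 in the normal samples, and in the 26 published tumors the lowest, median and highest values were 4.94, 6.44 and 10.43. The groups did not overlap, and the brightest tumor was well below the dimmest normal sample. The difference was −6.02 (SE 0.93, adjusted p = 7.0e-06 in limma, 95% interval −7.91 to −4.13). With no detection calls in the files, whether the dimmest tumor values of Ogn, Lum and Aspn stood above background is not known, so no fold is given for them. A second Ogn probe set gave −5.08. The normal samples lay within 0.23 of each other, whereas the tumors covered 5.49.

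Lum (lumican), a keratan sulfate proteoglycan that limits collagen fibril width in the cornea and skin, followed the same order. The normal samples had 11.26, 11.38 and 11.43, and the tumors a lowest value of 4.80, a median of 5.62 and a highest value of 10.12. No tumor reached the normal range. The difference was −5.01 (SE 0.86, adjusted p = 3.27e-05 in limma).

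The neighbours of Ogn were lower by less. Aspn (asporin), which carries a run of aspartate residues and binds TGF-beta, had 8.26, 9.92 and 9.22 in normal samples and 4.92, 6.24 and 8.41 as the lowest, median and highest tumor. Only 1 published tumor, R5838 with the highest value, fell inside the normal range. The Aspn difference was −2.74 (SE 0.44, adjusted p = 1.11e-05 in limma), and −2.28 on its second probe set. Omd (osteomodulin), a keratan sulfate proteoglycan of bone, had 10.79, 11.17 and 11.48 in normal samples and 6.88, 8.92 and 9.68 in tumors, with no overlap. Its difference was −2.32 (SE 0.39, adjusted p = 2.49e-05 in limma), a 5.0-fold lower level. Ecm2, on the other side of Aspn, was also lower, by −1.09 (SE 0.09, adjusted p = 1.5e-10 in limma), and was the only 1 of 6 measured relatives outside the member list that changed.

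Fmod and Bgn passed the threshold narrowly. Fmod (fibromodulin), which guides collagen cross-linking in tendon, had 12.52, 10.71 and 11.78 in normal samples and 9.12, 10.38 and 12.36 in tumors. The groups overlapped, with 7 of 26 tumors inside the normal range. The Fmod difference was −1.20 (SE 0.46, adjusted p = 0.0369 in limma), and its 5 other probe sets gave −1.30 to −1.56, all lower. These probe sets share a target and are not independent. Bgn (biglycan), a class I proteoglycan of bone and vessels, had 13.22, 12.58 and 12.74 in normal samples and 9.39, 11.72 and 13.03 in tumors, of which 25 of 26 were below all normal samples. Its difference was −1.18 (SE 0.45, adjusted p = 0.0362 in limma), and 2 further probe sets gave −0.94 and −1.05 without passing (adjusted p = 0.096 and 0.077). The Bgn call was lost when any 1 normal sample was left out (adjusted p = 0.173, 0.066 and 0.086), and the Fmod call without normal sample 1 (−0.77, adjusted p = 0.296) or 3 (−1.14, adjusted p = 0.121). The calls for Ogn, Lum, Aspn and Omd held in each of these fits.

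Dcn (decorin), the class I proteoglycan that binds TGF-beta and the receptors Egfr and Met, gave no call. The normal samples had 12.24, 12.87 and 12.35, and the tumors 11.43, 12.62 and 12.93. Of the 26 tumors, 20 lay within the normal range, 5 below and 1 above. The difference was −0.02 with a 95% interval of −0.51 to 0.47. Lum, the neighbour of Dcn on chromosome 10, lay far below normal in the same samples. Prelp, which anchors basement membranes to connective tissue, had 9.58, 8.42 and 8.91 in normal samples and 6.40, 9.38 and 11.50 in tumors, which covered both sides of the normal range. Its difference was 0.32 (interval −1.13 to 1.76), and a second probe set gave the opposite sign, −1.13 (SE 0.89, adjusted p = 0.32 in limma), so that no direction was set for this gene.

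Podn (podocan), known from vessel smooth muscle, was at 6.10, 5.73 and 5.93 in normal samples and between 5.70 and 6.66 in published tumors. Chad (chondroadherin), a cartilage protein that binds collagen and integrins, was at 5.85, 5.59 and 5.37 and between 5.12 and 6.36. Both groups overlapped for both genes, and the differences were 0.06 (SE 0.14) and −0.18 (SE 0.17). The files hold no detection calls for these arrays, so that whether these values stood above background is not known.

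**Figure D2:**
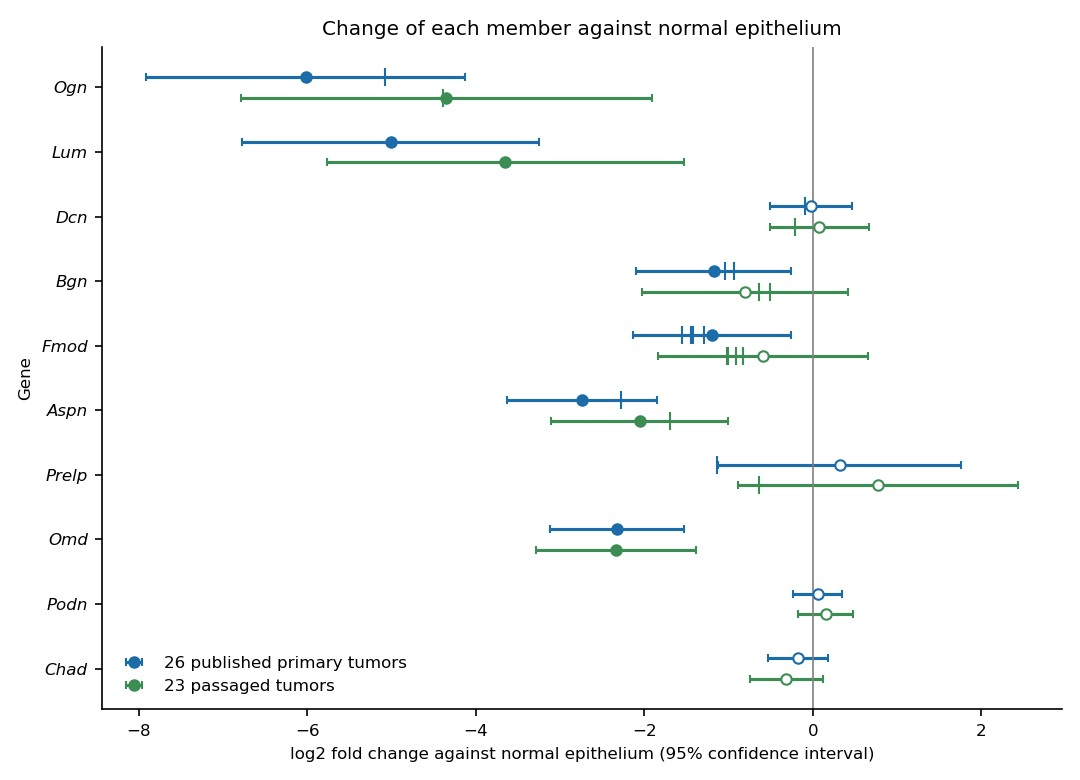
Log2 difference from normal epithelium (x axis) of each member in published primary and in passaged tumors; points are the brightest probe set with 95% intervals, filled where the test was passed, and ticks are other probe sets. Ogn is lowest at −6.02 and −4.35, and Dcn lies at −0.02 and 0.08.

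Split by genotype, the same direction held for Ogn, Lum, Aspn and Omd in all 4 groups. Against the shared normal samples, 5 of 10 members were lower in Brca1-deficient p53-deleted tumors (background 22.6% of probe sets), 5 in Brca1-deficient p53-missense tumors (13.1%), 6 in Brca2-deficient p53-missense tumors (20.4%) and 4 in Brca wild type p53-deleted tumors (20.5%). Of the 21 member probe sets, 12, 9, 13 and 6 were lower in the same order. Bgn was the member lacking a call in the first group (−1.06, adjusted p = 0.0604 in limma), Fmod in the second (−1.30, adjusted p = 0.116), and both in wild type tumors. Ogn was lower by −7.40 in the Brca1-deficient p53-missense tumors and by −4.74 in the wild type tumors, the extremes of the 4 groups. These comparisons share the 3 normal samples.

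Tumor genotypes were then compared with each other, and 0 of 10 members passed in any of 3 contrasts. Brca1-deficient against wild type tumors with p53 deleted had 0.00572% of probe sets called, missense against deleted p53 in Brca1-deficient tumors 0.238%, and Brca2- against Brca1-deficient tumors with missense p53 0.00572%. At an unadjusted p under 0.05, Podn was lower in Brca1-deficient than in wild type tumors (−0.33, p = 0.009, adjusted p = 0.969 in limma) and Bgn lower in missense than in deleted p53 (−0.94, p = 0.046, adjusted p = 0.417 in limma). The mean Ogn level was 6.95 ± 1.37 (SD, n = 14) in Brca1-deficient p53-deleted tumors, 5.65 ± 0.71 (n = 3) in the missense ones, 7.06 ± 1.77 (n = 5) in Brca2-deficient tumors and 8.31 ± 2.39 (n = 4) in wild type tumors. Neighbours in that order overlapped. For Lum the means were 6.38, 5.32, 5.97 and 7.47. The wild type mean carried R5810 and R5838, which had ranks 2 and 1 of the 26 tumors for Ogn, 1 and 3 for Lum, and 2 and 1 for Aspn.

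The second question was how the members vary among tumors. Across the 26 published primary tumors the SD of Ogn was 1.64, of Lum 1.53 and of Prelp 1.24, against a median of 0.306 over all genes, which placed them at percentiles 99.5, 99.2 and 98.0. Bgn (0.79), Fmod (0.77), Aspn (0.73) and Omd (0.68) followed. Dcn varied less, with an SD of 0.41. Chad and Podn had 0.29 and 0.24. Thus Ogn and Lum, the members with the largest differences from normal epithelium, were also the most variable of the 10 among tumors.

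Ogn and Lum also varied together. Of the 45 pairs of members, 36 had a Pearson r above 0 over the 26 tumors, and 14 had an adjusted permutation p under 0.05 (10 for Spearman's rho). Pairs of other genes were not counted, so whether these counts are high for these tumors is not known. The strongest pair was Ogn with Lum (r = 0.76, permutation p = 1e-05, the smallest that the resamples can give, adjusted p = 0.00045, rho = 0.70, permutation p = 9e-05, adjusted p = 0.00225). Without the 2 tumors farthest from the Ogn median r was 0.66, and within the 14 Brca1-deficient p53-deleted tumors it was 0.69. The lowest r was that of Podn with Chad, −0.21 (permutation p = 0.296, adjusted p = 0.509, rho = −0.15, permutation p = 0.478).

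Immediate genome neighbours gave 4 pairs. Dcn and Lum had the r nearest to 0, at 0.02 (permutation p = 0.938, rho = 0.03, permutation p = 0.902), and −0.12 without the 2 tumors farthest from the median. Aspn with Omd had 0.27 (permutation p = 0.186, adjusted p = 0.398, rho = 0.41, permutation p = 0.0401, adjusted p = 0.145), and 0.18 without 2 tumors. Ogn with Omd had 0.15 (permutation p = 0.471, rho = 0.23, permutation p = 0.26) and Fmod with Prelp 0.34 (permutation p = 0.0923, adjusted p = 0.231, rho = 0.33, permutation p = 0.0977). None of these 4 pairs passed after adjustment. Ogn and Aspn, the outer genes of the chromosome 13 run with Omd between them, did pass (r = 0.57, permutation p = 0.00205, adjusted p = 0.0115, rho = 0.53, permutation p = 0.00624, adjusted p = 0.0326). Their r was 0.27 without the 2 tumors farthest from the Ogn median and 0.23 within the 14 Brca1-deficient p53-deleted tumors.

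**Figure D3:**
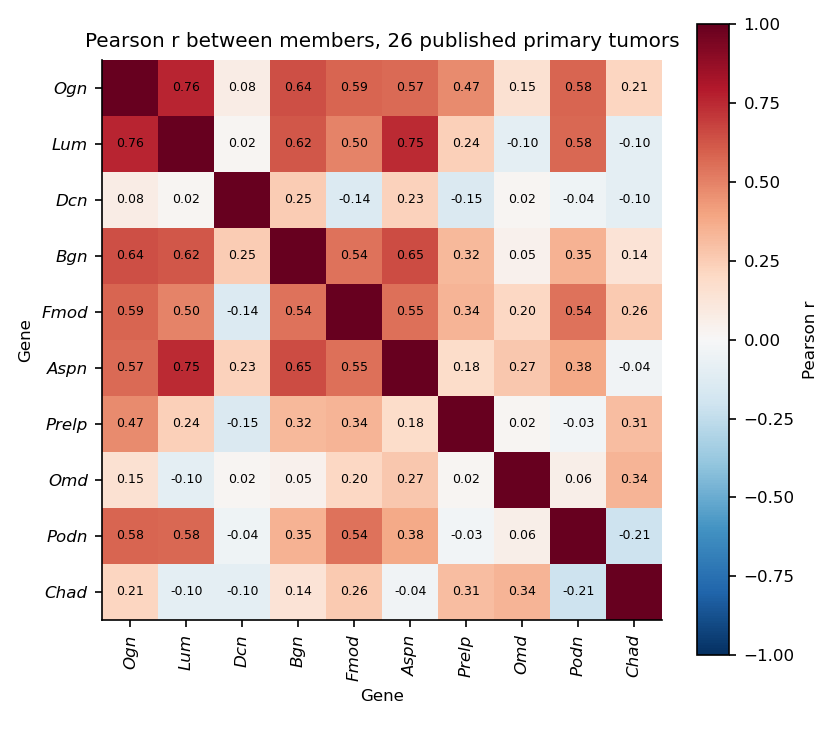
Pearson r between each pair of members over the 26 published primary tumors (colour scale from −1 to 1, members on both axes). Ogn with Lum is the strongest pair at 0.76, and Lum with Dcn the nearest to 0 at 0.02.

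Outside the family, the genes most like Lum over these tumors were Itga8, an integrin subunit (r = 0.94), Postn, the matrix protein periostin (0.92), and Pdgfrl (0.91). Ogn was most like Itih5, which stabilises hyaluronan matrix (0.89), Myocd, the smooth muscle coactivator myocardin (0.86), and the Wnt antagonist Sfrp1 (0.86). Bgn was most like Lhfp (0.87), Phldb2 (0.85) and Bmper, a BMP-binding protein (0.84). For Dcn the values were lower, with Fas, a death receptor, at 0.78, Pkia at 0.75 and Tprkb at 0.74. These r values rank 18183 genes over the same 26 arrays and carry no test.

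Genes around the family in the matrix were counted in the same comparison, in which 24.5% of all probe sets were lower and 16.9% higher. Of 14 measured fibrillar collagen and cross-linking genes, 8 were lower and 1 higher in published primary tumors than in normal epithelium, with a median of −1.06 against −0.11 over all genes. Among them were Col1a2, a chain of type I collagen (−3.31), Lox, the cross-linking enzyme (−2.34), and Col3a1 (−2.02), while P4ha1, a proline hydroxylase of collagen, was higher by 0.53. Of the 15 fibroblast markers 8 were lower and 1 higher (median −1.71), led by Tcf21 at −4.14. Their mean log2 level was 9.96 to 10.04 in normal samples and 6.90 to 10.73 in published tumors, which covered both sides, and its part in the member differences was not tested. Of 11 smooth muscle markers 5 were lower (median −0.77), as were 13 of 14 oocyte markers (−3.41), 10 of 12 granulosa, theca and luteal markers (−2.39), 9 of 10 T and NK cell markers (−1.12, with 1 higher) and 4 of 10 endothelial markers (−0.90). Of 22 genes of glycosaminoglycan chain synthesis 8 were lower (median −0.49), among them Chsy3, a chondroitin synthase (−2.88), and Dse, the dermatan sulfate epimerase (−1.46). Of 21 other matrix and cell surface proteoglycans 5 were lower and 3 higher (median −0.20), close to the shares of all probe sets.

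Genes that process or bind the proteoglycans were read against the same shares of all probe sets. Of 6 genes of procollagen and propeptide processing 3 were lower and 0 higher, with Adamts3 at −1.96, Pcolce, the procollagen C-proteinase enhancer, at −0.66, and Bmp1, the protease that cleaves the biglycan propeptide, at −0.43. Of 15 TGF-beta pathway genes 7 were lower and 0 higher (median −0.55), including Bmp2 (−2.71) and the receptors Bmpr1b (−2.81) and Tgfbr1 (−0.78). Of 13 receptor genes 1 was lower, the decorin receptor Egfr (−1.91), and 2 were higher, P2rx7 (1.34) and Itgb1 (0.68), which is below the share of all probe sets in each direction.

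The third question was whether passaging by transplantation changed the family. In the new set 0 of 10 members differed between passaged and primary tumors, where 0% of the 34945 probe sets were called, and 1866 had an unadjusted p under 0.05. Ogn was at 8.77, 5.09, 8.92, 5.0 and 4.67 in the 5 new primary tumors, and at 5.19, 8.40 and 10.62 as the lowest, median and highest of the 23 passaged ones. The primary tumors thus split into 2 near the passaged median and 3 below the passaged minimum. The difference was 1.65 (SE 0.76, unadjusted p = 0.0401, adjusted p = 0.89 in limma). Aspn differed by 0.69 (SE 0.30, adjusted p = 0.849 in limma) and Lum by 1.24 (SE 0.62, adjusted p = 0.928 in limma), both without passing. Taken singly, passages 1, 2 and 3 had 0% of probe sets called against primary tumors (1138, 1667 and 1772 at an unadjusted p under 0.05), passage 4 had 2.17% and passage 5 had 5.48%, and 0 members passed in any of the 5. Dcn came nearest, with 0.79 in passage 5 (SE 0.24, adjusted p = 0.0513 in limma), followed by Omd with −1.14 in passage 5 (SE 0.38, adjusted p = 0.0872).

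Over the passage number, 1 of 10 members rose and 1 fell, which is near the shares of all probe sets (8.0% and 6.21%). In the 16 Brca1-deficient samples, Dcn rose by 0.16 per passage (SE 0.05, adjusted p = 0.0284 in limma), where 8.0% of all probe sets rose. Its values were 12.67 and 12.48 in primary tumors, 12.74, 12.85, 12.89 and 12.21 in passage 1, and 12.61, 12.47 and 12.32 in passage 2. They were 13.27, 12.63 and 12.38 in passage 3, 13.29 and 13.28 in passage 4, and 13.42 and 13.26 in passage 5. The 4 samples of passages 4 and 5 exceeded all primary, passage 1 and passage 2 samples, and overlapped with passage 3. The Dcn call was lost without passage 4 (0.14, adjusted p = 0.115) or passage 5 (0.14, adjusted p = 0.286), and the second Dcn probe set rose by a like amount without passing (0.18, adjusted p = 0.41).

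Omd fell by 0.24 per passage (SE 0.06, adjusted p = 0.0105 in limma), where 6.21% of probe sets fell. It was at 9.47 and 8.54 in primary tumors, 8.81, 9.44, 8.51 and 8.81 in passage 1, and 8.61, 8.23 and 8.78 in passage 2. Passage 3 gave 8.83, 8.49 and 8.02, passage 4 gave 8.42 and 8.63, and passage 5 gave 7.61 and 7.50. The 2 samples of passage 5 were below all the others, and without them the slope was −0.15 (adjusted p = 0.287 in limma). These 2 arrays were close to each other (SD 0.209), so that they can carry less than 2 separate tumors would. Since the labels do not give the line of most passages, passage number cannot be told apart from line in the Dcn and Omd slopes. Lum (0.41 per passage, SE 0.18, adjusted p = 0.14 in limma) and Prelp (−0.31, SE 0.12, adjusted p = 0.115 in limma) had larger slopes that did not pass. Over the same samples 4 of 15 fibroblast markers and 7 of 10 macrophage markers rose with passage (median slopes 0.24 and 0.23, against 0.011 over all genes). So did 5 of 10 T and NK cell markers (0.16, with 1 that fell), 3 of 10 endothelial markers (0.065) and 2 of 6 adipocyte markers (0.18). Of 14 oocyte markers 3 rose (0.028), and of 11 smooth muscle markers 2 rose (0.064), where 8.0% of all probe sets rose. The part of these cells in the Dcn and Omd slopes was not tested.

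**Figure D4:**
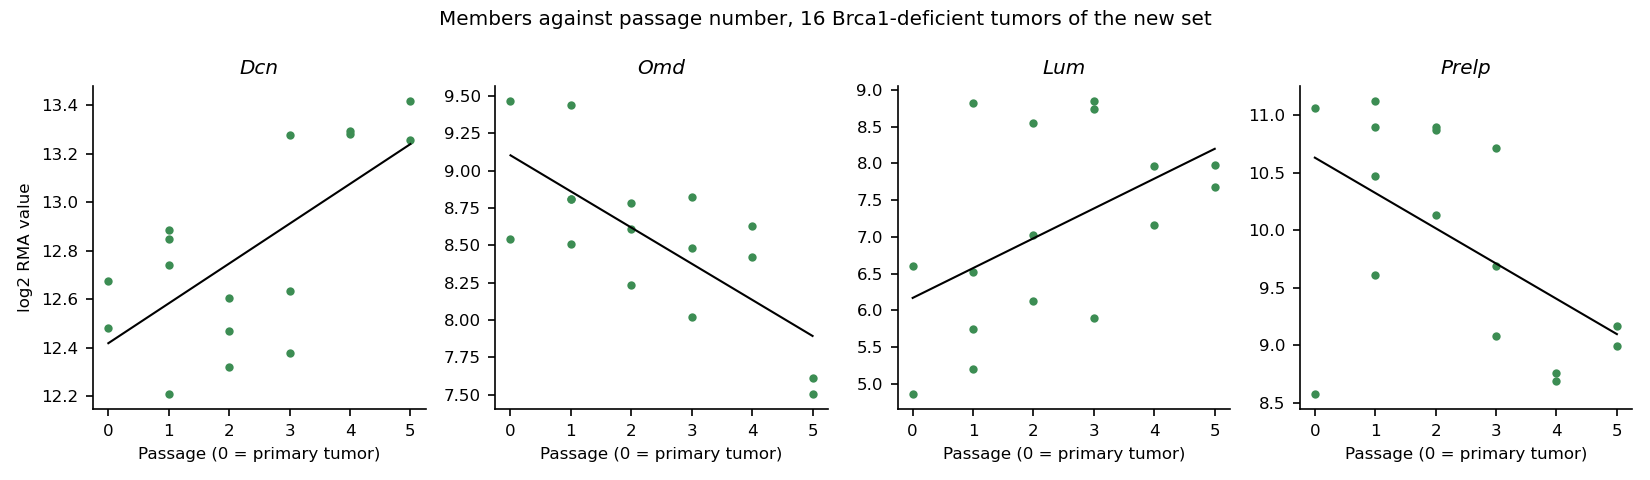
Log2 level of Dcn, Omd, Lum and Prelp (y axes) against passage number (x axis, 0 for primary) in the 16 Brca1-deficient samples of the new set; points are samples and lines the fitted slope. Dcn rises by 0.16 and Omd falls by 0.24 per passage, and the lowest Omd values, 7.61 and 7.50, are those of passage 5.

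Brca1 genotype within the new set gave a call for 1 of 10 members, which is near the share of all probe sets called in either direction (10.6%). Fmod was higher in Brca1-deficient than in wild type tumors by 1.24 (SE 0.23, adjusted p = 0.00122 in limma, a comparison with 5.88% of probe sets called higher), and its 6 probe sets gave 1.15 to 1.25. The other 9 members did not pass. The new set held 2 Brca1-deficient and 3 wild type primary tumors, and tumors of 1 line entered as separate samples. Genotype can thus not be fully told apart from line, and this p-value can be too small. In passage 1, Fmod was at 11.93, 10.93, 11.99 and 11.07 in Brca1-deficient tumors and at 9.41, 10.77, 9.84 and 10.15 in wild type tumors. In passage 2 it was at 11.58, 11.81 and 12.04 against 10.74, 9.67, 9.58 and 10.51. The genotypes did not overlap in either passage, and how many of all probe sets separate like this was not counted. The passage 2 sample labelled with both genotypes, at 10.89, is not among these values. The primary tumors of the 2 genotypes overlapped, with 10.97 and 10.44 against 11.39, 9.87 and 9.12. Passages 3 to 5, all Brca1-deficient, ranged from 10.87 to 12.04. With passages 1 and 2 alone the difference was 1.55 (adjusted p = 0.00646 in limma), an alternative chosen after the data were seen.

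**Figure D5:**
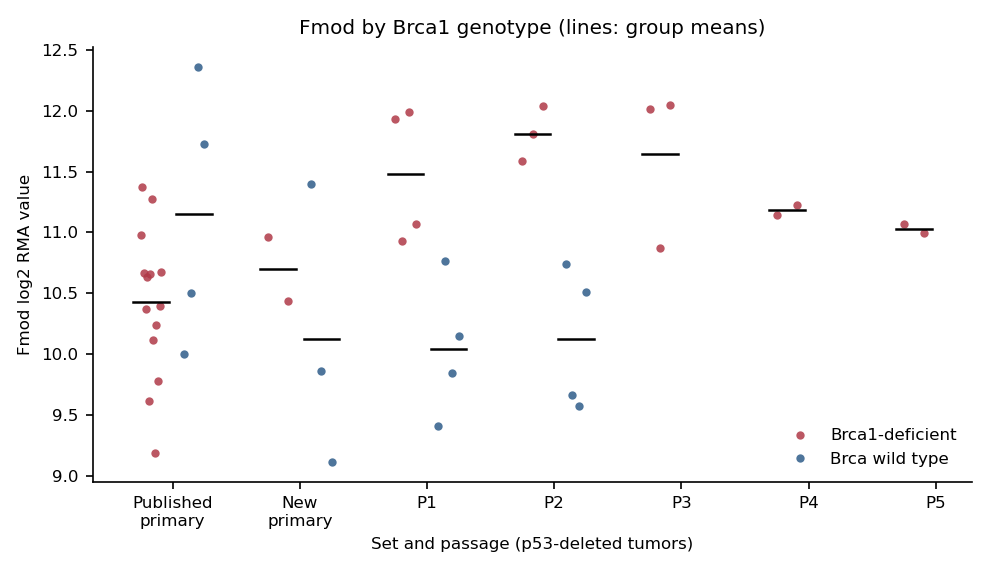
Log2 level of Fmod (y axis) in tumors of the new set by passage and in the published p53-deleted tumors, coloured by Brca1 genotype. Points are samples and lines group means, and the passage 2 sample labelled with both genotypes (10.89) is not drawn. Brca1-deficient and wild type tumors separate in passages 1 and 2 (10.93 to 12.04 against 9.41 to 10.77) and overlap among primary tumors. The share of all probe sets that separate like this was not counted.

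In the published set the Fmod difference had the opposite sign and did not pass. It was −0.72 (SE 0.42, adjusted p = 0.969 in limma), with 9.19 to 11.37 in 14 Brca1-deficient and 10.00 to 12.36 in 4 wild type tumors. The difference between the sets was 1.96 (SE 0.44, adjusted p = 0.039 in limma, 0.134% of probe sets called higher). The call was lost with every array entered (1.90, adjusted p = 0.0519), among primary tumors alone (1.29, adjusted p = 0.835) and without passages 3 to 5 (2.02, adjusted p = 0.121), the last 2 chosen after the data were seen. The median fibroblast marker level in the new set was 9.51 (6.94 to 10.00) in Brca1-deficient and 8.58 (7.14 to 9.51) in wild type tumors. These ranges overlapped, only the Brca1-deficient samples included passages 3 to 5, and the level was not tested by genotype. Its part in the Fmod difference was not tested. The study's sources give primary lines 29255 and 34429 more than 1 Brca1 genotype, and the labels, which give wild type, were followed. Since the line of most passages is not in the labels, what another genotype of these lines would do to the Fmod difference was not tested.

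Against normal epithelium, passaged tumors showed the same 4 members lower that had the largest differences in primary tumors. Ogn (−4.35, SE 1.22, adjusted p = 0.0053 in limma), Lum (−3.65, SE 1.06, adjusted p = 0.00714), Aspn (−2.06, SE 0.52, adjusted p = 0.0022) and Omd (−2.34, SE 0.47, adjusted p = 0.000148) were lower. This makes 4 of 10 members, and 6 of the 21 member probe sets, against 16.2% of all probe sets. All 23 passaged tumors lay below the 3 normal samples for each of these genes. How many of all probe sets separate in this way was not counted. Bgn (−0.81), Fmod (−0.59), Dcn (0.08), Prelp (0.77), Podn (0.15) and Chad (−0.31) did not pass. Because the new set had no normal samples, the fit takes the offset between sets from the primary tumors of both. It held no genotype term, and the published tumors include p53-missense and Brca2-deficient ones that the new set lacks. Set and genotype can thus not be fully told apart in this offset. Tumor 30200 enters this fit from both sets, and with it entered once, an alternative chosen after the data were seen, the same 4 members were called (Ogn at −3.78, adjusted p = 0.0184). In the authors' merged table the Lum call was lost (−2.69, adjusted p = 0.0626). Beside these members, 12 of 14 oocyte markers (median −3.49), 6 of 12 granulosa, theca and luteal markers (−2.32) and 2 of 15 fibroblast markers (−0.22) were lower, and 0 of 14 fibrillar collagen genes were lower and 1 higher (−0.27). Their part in the member differences was not tested.

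Between new and published primary tumors 0 members differed (1.18% of probe sets called). Tumor 30200, profiled in both sets, had member levels that differed by a median of 0.17 and at most by 0.41, for Fmod. Between disease stages III-IV and I-II, 0 members passed in passaged (0.0458%) or in published primary tumors (0%, with 2707 probe sets at an unadjusted p under 0.05).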

How the data were processed

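Mouse expression arrays were summarised per probe set by the authors with RMA. No RMA version was found in the sources used here. The deposited values are log2, from 3.25 to 14.31. A second deposited table of log2 values, in which the authors merged mouse and human samples, served as an alternative for the 8 members it holds, and 278 of its other sample columns were left unused. Of 45037 probe sets, 932 that name several genes and 9160 unnamed ones were left out, and 34945 were tested. No genome build is named in the files, and coordinates come from RefSeq (GRCm38.p6) alone.

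Each comparison was fitted across all 34945 probe sets with limma 3.58.1 (lmFit and eBayes, two-sided) in R 4.3.3 (tables read with the data.table package, version 1.17.8), and Benjamini-Hochberg adjustment with a threshold of 0.05. Published tumors were set against normal samples in 1 fit without genotype, and a further fit had a mean for each tumor genotype and for normal. The new set used Brca1 genotype and passaged or primary status as terms, with a term for each passage in place of that status for single passages. The slope used passage number alone, in Brca1-deficient samples. Stage was fitted with genotype as a further term, and comparisons across sets had the set as a term. Arrays whose probe sets differed with an SD under 0.15 were counted once. Permutation p-values of correlations used 100000 resamples in Python 3.11.15 (numpy 2.4.6, pandas 2.3.3, scipy 1.17.1, matplotlib 3.10.9). The number of arrays limits the precision. The fits were tested on simulated data with known changes. Members were named by symbol and given by the probe set with the highest mean. From each pathway list, up to 3 genes past the threshold with the largest difference from normal epithelium could be named, with their background drawn from general knowledge. Ecm2 and the list summaries belong to those lists. The members and the lists were chosen with earlier results of these data known. Alternatives covered probe set choice, a filter on dim probe sets, eBayes with trend and robust options, array weights, the merged table and left-out samples, and 5 alternatives, of the Brca1 comparisons and of entering tumor 30200 once, were chosen after seeing the data.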

Additional observations from a re-analysis of the deposited data

Results flagged for a closer look

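Among 50 groups of 4 to 10 samples tested over the members, 2 held a sample set apart from the rest, where chance alone sets apart about 1 in 20 groups. Chad was at 5.42 in the published Brca wild type tumor R5838, against 5.2 to 5.21 in the other tumors of that group. Chad was also at 6.02 in tumor 57452 of passage 1, against 5.12 to 5.51 in the others.

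The Brca1 difference in Fmod differed between the sets by 1.96 (limma interaction, adjusted p = 0.039), since Fmod was higher in Brca1-deficient tumors of the new set (1.24) and gave −0.72, without passing, in the published set. All 6 Fmod probe sets gave 1.84 to 2.03. The call was lost with every array entered (1.90, adjusted p = 0.0519), among primary tumors alone (1.29, adjusted p = 0.835) and without passages 3 to 5 (2.02, adjusted p = 0.121).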

How the results depend on the processing

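Of 358 counts of members called under an alternative, 334 stayed within 1.5 times the first count, and no called gene reversed. Most first counts were 0, and a count of 0 that stayed at 0 is among the 334. Over single genes, 1636 of 1673 results kept their side of the threshold, among them 72 that changed sign and passed in neither fit. Genes without a call in either fit also count as having kept their side. Of the rest, 25 lost their call and 12 gained one. Testing only probe sets at or above the median level left Ogn, Lum, Aspn, Podn and Chad untested, and the counts lower than normal epithelium became 3 in published primary tumors (6 before), 2 in each Brca1-deficient group, 3 in Brca2-deficient, 1 in wild type and 1 in passaged tumors. With array weights, Dcn passed in passages 4 and 5 against primary tumors (1 higher each), Omd in passage 5 (1 lower), Prelp joined Omd in the slope (2 lower), Bgn joined Fmod in the new set (2 higher), and Dcn passed between stages of passaged tumors (1 higher). Dcn in passage 5 also passed with 1 probe set per gene, with dim probe sets left out and with trend and robust options (1 higher each). With passages 1 to 5 alone 2 members had falling slopes, and 0 without passage 5. The rising slope gave 0 calls with the mean of probe sets, in the merged table, and without passage 4 or 5. The Fmod interaction gave 0 calls with every array entered (1.90, adjusted p = 0.0519), with primary tumors alone and without passages 3 to 5 (2.02, adjusted p = 0.121), the last 2 chosen after seeing the data. The cause of these shifts was not tested. Leaving out 1 normal sample gave 4 to 5 lower members in published primary tumors and 4 in passaged tumors. Lum against normal in passaged tumors lost its call in the merged table (−2.69, adjusted p = 0.0626), and Bgn passed without the set term (−1.16, adjusted p = 0.0437). No paired analysis was possible because the labels give no replicate numbers shared between groups.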
